A study of Mus musculus with 8 samples.

Results

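The insulin-like growth factor (IGF) genes described here are the 10 genes Igf1, Igf2, Igf1r, Igf2r, Igfbp2, Igfbp3, Igfbp4, Igfbp5, Igfbp6 and Igfbp7. They were taken by name for their place in the IGF system, with earlier results of these data known. All 10 were found among the 27179 genes of the deposited count table, and all 10 passed the filter on low counts that left 15583 genes for testing. The RNA-seq libraries, 8 in number, were made from sorted lung cells, 4 from the QZ1-hi population (labelled QZ+) and 4 from the QZ1-lo population (labelled QZ-). QZ1 is a fluorescent probe that is unquenched when a protease cuts its peptide linker, and the comparison asks which genes differ in level between cells with high and cells with low probe signal.

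Every library came from the Eml4-Alk model, female C57BL/6 mice given an adenovirus with Cas9 and guide RNAs through the trachea, which joins the Eml4 and Alk genes and starts lung tumors. The mice were 18 to 22 weeks old and 11 to 12 weeks past tumor induction, and they had received 4.5 nmol of QZ1-(PEG2K) intravenously 2 h before the lungs were taken. Live cells without CD45 and CD11b were split by QZ1 signal, with at least 100000 cells per population, so both populations are mixtures from tumor-bearing, probe-injected lungs, and neither is a sample of tumor cells alone. No healthy lung and no lung without the probe is among the libraries. The libraries are described as biological replicates. Whether each holds 1 mouse is not stated, the replicate numbers used here follow the order of deposit, and no number pairs the libraries of the populations, so p-values measure the spread between these libraries.

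IGF1 and IGF2 are secreted growth factors that signal through IGF1R, a receptor tyrosine kinase related to the insulin receptor. IGF2R, which also carries lysosomal enzymes, takes IGF2 up for degradation and does not signal as a kinase. The IGF binding proteins (IGFBPs) are secreted, hold IGFs outside the cell and can block or prolong their action, and extracellular proteases release the ligand by cutting them. IGFBP7 binds IGFs only weakly and is known from vascular basement membrane. In the lung, fibroblasts and macrophages are known sources of IGF1, and fibroblasts, pericytes and endothelial cells are known sources of several IGFBPs.

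The promoters of 4 members are shown because these genes were called in the comparison and lie at opposite ends of the members. Igfbp3, Igfbp4 and Igfbp6 had the largest log2 fold changes among the members, and Igf1r was the member called lower. Each sequence is taken from RefSeq (GRCm38.p6) and runs 5′ to 3′ on the gene's own strand. It spans 250 bases before to 50 bases after the start annotated in RefSeq. Capitals mark the TATA box (TATAAA), the CCAAT box (CCAAT) and the GC box (GGGCGG), read on both strands, and these motifs do not overlap each other in the 4 windows. The windows lie at chr11:7213874-7214173 (minus strand) for Igfbp3, chr11:99040994-99041293 (plus) for Igfbp4, chr15:102143936-102144235 (plus) for Igfbp6 and chr7:67952007-67952306 (plus) for Igf1r.
Igfbp3: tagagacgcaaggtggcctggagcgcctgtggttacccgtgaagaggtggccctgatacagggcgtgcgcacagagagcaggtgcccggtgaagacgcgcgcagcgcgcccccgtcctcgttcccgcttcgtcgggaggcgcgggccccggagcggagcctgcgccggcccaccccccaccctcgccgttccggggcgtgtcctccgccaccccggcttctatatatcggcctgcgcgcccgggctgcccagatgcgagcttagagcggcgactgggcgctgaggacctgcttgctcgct
Igfbp4: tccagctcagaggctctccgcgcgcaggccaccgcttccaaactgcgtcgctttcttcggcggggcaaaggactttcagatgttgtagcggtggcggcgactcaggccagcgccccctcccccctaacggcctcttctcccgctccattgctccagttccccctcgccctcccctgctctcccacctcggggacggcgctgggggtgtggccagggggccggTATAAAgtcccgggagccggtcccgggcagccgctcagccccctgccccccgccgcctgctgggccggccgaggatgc
Igfbp6: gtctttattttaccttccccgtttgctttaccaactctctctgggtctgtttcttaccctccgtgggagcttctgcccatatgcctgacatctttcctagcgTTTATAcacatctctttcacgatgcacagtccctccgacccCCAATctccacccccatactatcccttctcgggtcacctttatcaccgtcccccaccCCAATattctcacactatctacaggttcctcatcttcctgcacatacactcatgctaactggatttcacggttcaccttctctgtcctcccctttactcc
Igf1r: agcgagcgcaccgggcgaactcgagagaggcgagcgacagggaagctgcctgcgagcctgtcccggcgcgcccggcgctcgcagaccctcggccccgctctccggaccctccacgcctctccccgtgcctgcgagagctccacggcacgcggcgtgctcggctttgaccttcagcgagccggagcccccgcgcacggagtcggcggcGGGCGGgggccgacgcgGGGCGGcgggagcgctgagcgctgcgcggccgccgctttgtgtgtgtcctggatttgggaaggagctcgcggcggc

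The 4 windows do not share a motif. The Igfbp4 window holds 1 TATAAA, which begins at position -28 from the start, and the Igfbp3 window holds none of the 3 motifs. The Igfbp6 window has 1 TATAAA on the opposite strand and 2 CCAAT, and the Igf1r window has 2 GGGCGG. Among 32851 mouse promoters of the same length, 13.6% hold TATAAA, 37.4% CCAAT and 35.7% GGGCGG. The Igfbp6 window is 49.7% G and C, near the median promoter (52.7%), while those of Igfbp3 (71.7%), Igfbp4 (71.3%) and Igf1r (76.0%) are richer in G and C.

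By the annotation (GRCm38, GENCODE M21), Igfbp2 at chr1:72824503-72852474 and Igfbp5 at chr1:72857932-72874884 are neighbours on opposite strands, with their 3′ ends 5457 bases apart. Igfbp3 lies at chr11:7206086-7213923, with Igfbp1 as its neighbour 3539 bases away. Igfbp4 lies on the same chromosome at chr11:99041244-99054392, Igfbp6 at chr15:102144362-102149511 and Igfbp7 at chr5:77349240-77408041. The ligand genes are Igf1 at chr10:87858265-87937042 and Igf2 at chr7:142650766-142666816, and the receptor genes are Igf1r at chr7:67952827-68233668 and Igf2r at chr17:12682406-12769664. The promoter windows of Igf1r and Igfbp6 end before the gene starts given here, because RefSeq and GENCODE place these starts apart. The exons of Igf2 share 98 bases with Igf2os and those of Igfbp7 share 85 bases with Polr2b, each on the opposite strand. The strand setting of the counting is not given in the sources used here, so reads in these stretches could belong to either gene. Igf2 also shares 3596 exonic bases on its own strand with Gm49394, which has no row in the count table, and its counts are uncertain for that reason.

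Total counts ranged from 18380918 to 26847938 per library, of which mitochondrial ribosomal RNA made up 39.5% to 58.4% in QZ1-hi and 30.2% to 47.3% in QZ1-lo. The members' calls were the same with mitochondrial genes and ribosomal RNA removed. Levels are given as CPM (counts relative to the library total, scaled by edgeR's TMM factors), and a positive log2 fold change means a higher level in QZ1-hi. Of all tested genes, 1540 (9.88%) were called higher in QZ1-hi and 1280 (8.21%) lower, with the adjusted p below 0.05. With scaling by library size alone, which moves the median log2 fold change of all tested genes from 0.02 to -0.44, these counts were 882 and 2509. The cell mixture of the populations differed: of 14 lists of cell type markers, the summed CPM of 10 did not overlap between the populations. Those of endothelial cells (769.9 to 1925 CPM in QZ1-hi against 52.6 to 260 in QZ1-lo; 8 of 8 genes called higher), lymphatic endothelium (63.7 to 166 against 3.46 to 15.6; 3 of 4), fibroblasts (1749 to 3424 against 88.6 to 407; 8 of 10), pericytes (81.7 to 156 against 11.8 to 33.1; 4 of 8), smooth muscle (48.1 to 94.4 against 12.4 to 26.3; 3 of 6, and 1 lower), mesothelium (41.9 to 290.2 against 6.06 to 39.2; 5 of 5) and platelets (17.2 to 35.2 against 3.79 to 8.87; 3 of 4) were higher in QZ1-hi. Those of alveolar type 1 cells (729 to 1095 against 1381 to 1731; 5 of 7 called lower, 1 higher), airway secretory cells (360.4 to 1038 against 1483 to 4106; 4 of 5 lower) and ciliated cells (58.1 to 145 against 209 to 456; 6 of 6 lower) were lower. Markers of alveolar type 2 cells (6604 to 12008 against 5104 to 7826), macrophages and myeloid cells (3211 to 6986 against 2262 to 4595), lymphocytes (3.70 to 4.83 against 3.47 to 9.99) and red blood cells (131 to 1008 against 282 to 3101) overlapped. Markers with 0 counts in at least 1 library included Higd1b (pericyte), Tcf21 (fibroblast), Cnn1 and Actg2 (smooth muscle) and Gp9 (platelet). Ptprc, which encodes the CD45 used to gate cells out, was still read at 71.4 to 222 CPM in QZ1-hi and 93.4 to 161 in QZ1-lo.

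The binding proteins were the members that set the populations apart. Igfbp3, Igfbp4, Igfbp5, Igfbp6 and Igfbp7 were higher in QZ1-hi, by 2.46-fold for Igfbp7 to 10.4-fold for Igfbp3 and Igfbp4, and the receptor Igf1r was 1.41-fold lower. The ligands Igf1 and Igf2, the receptor Igf2r and Igfbp2 did not pass the test. Thus 5 of 10 members were called higher and 1 lower by edgeR's quasi-likelihood test, against 9.88% and 8.21% of all tested genes. The same 6 members were those without overlap between the populations, which held for 11.9% of all tested genes in the higher and 10.7% in the lower direction. The median log2 fold change was 1.40 over the 10 members, 2.20 over the 6 binding proteins and 0.02 over all tested genes. In bulk libraries such as these, fewer cells of a type and less RNA per cell cannot be told apart.

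**Figure D1:**
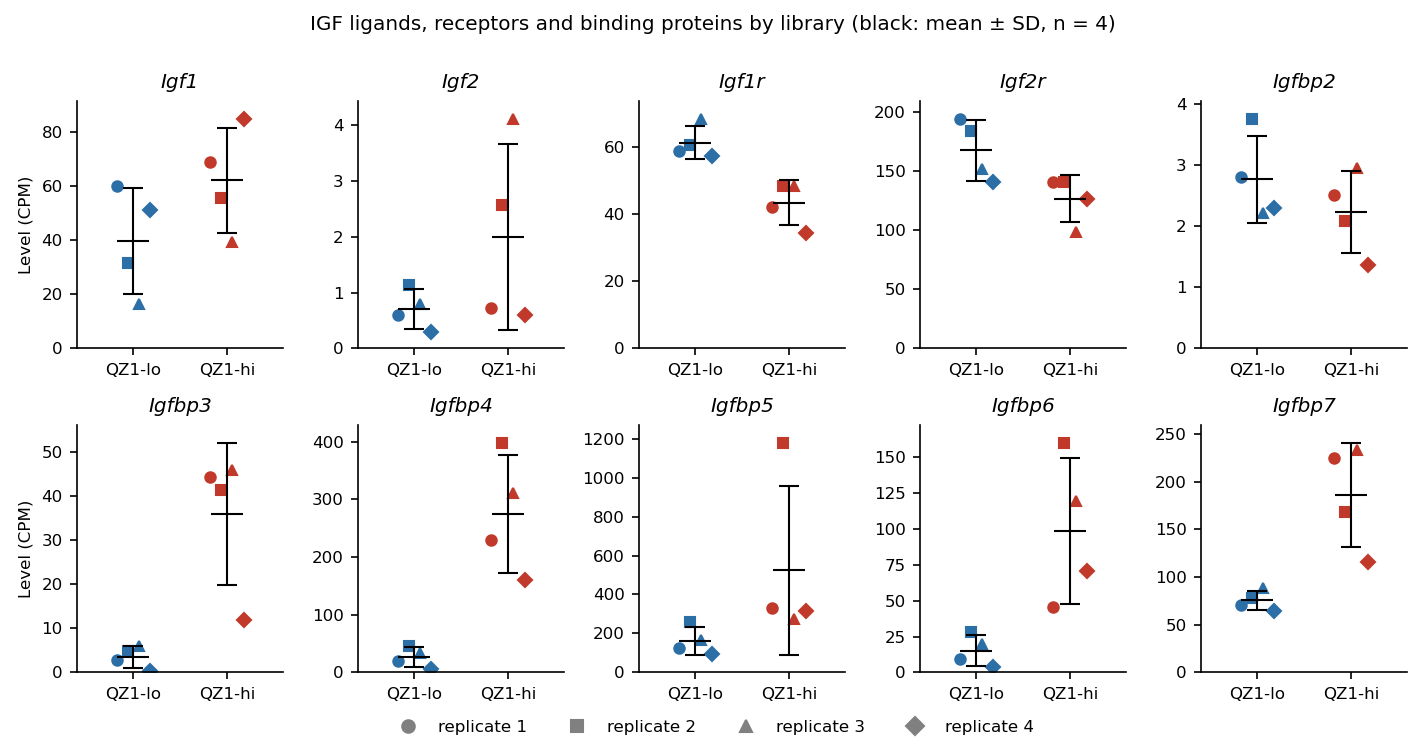
Level of each of the 10 IGF genes in each library (TMM-scaled CPM, linear axes from 0, 1 panel per gene). Points are libraries, and the black bars give the mean ± SD of 4 libraries; the points of Igfbp3, Igfbp4, Igfbp5, Igfbp6 and Igfbp7 in QZ1-hi all lie above those in QZ1-lo, and the points of Igf1r all lie below.

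Igfbp4, a binding protein best known for blocking IGF action until it is cut, was among the members with the widest gap. Its level was 229, 397, 311 and 160.4 CPM in QZ1-hi replicates 1 to 4 and 19.4, 46.5, 33.9 and 5.69 CPM in QZ1-lo replicates 1 to 4. The lowest QZ1-hi library was thus well above the highest QZ1-lo library, and replicate 4 was the lowest of each population. The means were 274 ± 102 and 26.4 ± 17.7 CPM (SD, n = 4 each), giving a log2 fold change of 3.38 (SE 0.53, 95% interval 2.22 to 4.54, edgeR adjusted p = 0.00133), with rank 190 of the 15583 genes by log2 fold change. The sum of the 10 fibroblast markers moved in the same direction. Igfbp4 counts came to 9.09% to 13.2% of the summed counts of those markers in QZ1-hi and 6.42% to 11.7% in QZ1-lo, ranges that overlap. The overlap was not particular to fibroblasts, since it was also seen relative to endothelial, pericyte and mesothelial markers. Relative to smooth muscle, macrophage and myeloid, alveolar type 1 and alveolar type 2 markers, Igfbp4 was higher in QZ1-hi without overlap. The part of fibroblast content in the Igfbp4 difference was not tested.

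Igfbp3, the main carrier of IGFs in blood, differed by the same factor from a lower level. Its level was 44.3, 41.3, 45.8 and 11.9 CPM in QZ1-hi replicates 1 to 4 and 2.80, 4.76, 5.93 and 0.246 CPM in QZ1-lo replicates 1 to 4. The populations did not overlap, QZ1-hi replicate 4 lay far under the other 3 QZ1-hi libraries, and the lowest QZ1-lo value rests on 6 counts. The means were 35.8 ± 16.04 and 3.44 ± 2.49 CPM (SD, n = 4 each), with a log2 fold change of 3.38 (SE 0.66, 95% interval 1.93 to 4.83, edgeR adjusted p = 0.00451). Relative to the fibroblast markers, Igfbp3 counts were 0.681% to 2.47% in QZ1-hi and 0.277% to 1.46% in QZ1-lo, which overlap. They overlapped as well relative to the endothelial, pericyte, mesothelial and macrophage and myeloid markers. Relative to the smooth muscle, alveolar type 1 and alveolar type 2 markers they were higher in QZ1-hi without overlap. Without replicate 4 of both populations the log2 fold change was 3.27 (edgeR adjusted p = 0.000535).

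Igfbp6, a binding protein that prefers IGF2 over IGF1, was 45.6, 159.6, 119 and 70.5 CPM in QZ1-hi replicates 1 to 4 and 9.24, 28.2, 19.8 and 3.77 CPM in QZ1-lo replicates 1 to 4. All QZ1-hi libraries were above all QZ1-lo libraries, and replicate 2 was the highest of each population. The means were 98.7 ± 50.8 and 15.2 ± 10.9 CPM (SD, n = 4 each), a 6.48-fold difference with a log2 fold change of 2.70 (SE 0.55, 95% interval 1.48 to 3.91, edgeR adjusted p = 0.00605). Against the fibroblast markers, the populations overlapped, since Igfbp6 counts were 2.55% to 5.32% of the fibroblast marker counts in QZ1-hi and 4.25% to 7.08% in QZ1-lo. The ranges also overlapped against endothelial, pericyte, mesothelial, smooth muscle and alveolar type 2 markers. They were higher in QZ1-hi, without overlap, against macrophage and myeloid markers and against alveolar type 1 markers.

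Igfbp7, the weak IGF binder of vascular basement membrane, had the smallest SE among the binding proteins. It was read at 225, 168, 233 and 116 CPM in QZ1-hi replicates 1 to 4 and at 71.0, 77.6, 88.3 and 64.6 CPM in QZ1-lo replicates 1 to 4. No QZ1-hi library reached down to a QZ1-lo library, and the QZ1-lo libraries lay close together. The means were 186 ± 54.5 and 75.4 ± 10.1 CPM (SD, n = 4 each), giving a log2 fold change of 1.30 (SE 0.21, 95% interval 0.85 to 1.75, edgeR adjusted p = 0.00140). Igfbp7 differed less than the endothelial markers did: its counts were 12.1% to 20.5% of the counts of the 8 endothelial markers in QZ1-hi and 34.0% to 123% in QZ1-lo, so relative to those markers the direction was turned, without overlap. The same held relative to the fibroblast markers, at 5.61% to 12.6% in QZ1-hi and 19.5% to 72.9% in QZ1-lo. The direction depended on the list. Igfbp7 overlapped relative to pericyte, smooth muscle, mesothelial and macrophage and myeloid markers. Relative to alveolar type 1 and alveolar type 2 markers it was higher in QZ1-hi without overlap.

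Igfbp5, which binds extracellular matrix as well as IGFs, had the highest mean CPM of the members in QZ1-hi and there the largest SD in CPM. Its level was 331, 1176, 277 and 314 CPM in QZ1-hi replicates 1 to 4 and 128, 257, 168 and 94.4 CPM in QZ1-lo replicates 1 to 4. QZ1-hi replicate 2 stood far above the other 3, the lowest QZ1-hi value was only just above the highest QZ1-lo value, and QZ1-lo replicate 2 was likewise the highest of its population. The means were 525 ± 435 and 162 ± 70.5 CPM (SD, n = 4 each), giving a log2 fold change of 1.70 (SE 0.47, 95% interval 0.66 to 2.73, edgeR adjusted p = 0.0283). Without QZ1-hi replicate 2 the log2 fold change was 0.90 and the call was lost (edgeR adjusted p = 0.0570). The call was also lost without QZ1-lo replicate 1 (adjusted p = 0.0762), QZ1-lo replicate 3 (0.0603) or QZ1-lo replicate 4 (0.0702), without replicate 4 of both populations (0.0638) and with robust shrinkage of the dispersions (0.0934).

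QZ1-hi replicate 2 also had the most mesothelial marker counts. The 5 mesothelial markers summed to 290.2 CPM there and to 62.2, 41.9 and 72.4 CPM in QZ1-hi replicates 1, 3 and 4. Igfbp5 counts were 405% to 659.9% of the mesothelial marker counts in QZ1-hi and 657% to 1559% in QZ1-lo, which overlap, and 8.08% to 39.2% of the fibroblast marker counts in QZ1-hi against 41.3% to 107% in QZ1-lo, which do not. The part of mesothelial cells in the Igfbp5 level of QZ1-hi replicate 2 was not tested.

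Igfbp2, the chromosomal neighbour of Igfbp5, had no such difference. It was read at 2.50, 2.07, 2.95 and 1.37 CPM in QZ1-hi replicates 1 to 4 and at 2.80, 3.74, 2.21 and 2.29 CPM in QZ1-lo replicates 1 to 4, from 23 to 94 counts. The populations overlapped, with means of 2.22 ± 0.671 and 2.76 ± 0.705 CPM (SD, n = 4 each). The log2 fold change was -0.31 (SE 0.38, 95% interval -1.15 to 0.53, edgeR adjusted p = 0.665), an interval that leaves room for a difference of a log2 unit in the lower direction.

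The binding protein mixture differed too, apart from its total. The summed level of the 6 genes was 877, 1944, 988 and 675 CPM in QZ1-hi replicates 1 to 4 and 233, 418, 319 and 171 CPM in QZ1-lo replicates 1 to 4, with no overlap. As a share of the summed level per length (CPM per kilobase of exon), Igfbp4 held 15.2% ± 0.826 (SD, n = 4) in QZ1-hi, with a range of 14.4% to 16.3%, and 4.86% ± 2.35 in QZ1-lo, with a range of 1.71% to 7.19%. With plain counts its share in QZ1-hi was 25.4% ± 4.65, with a range of 20.4% to 31.5%. Per length, the Igfbp4 share in QZ1-hi varied far less between libraries than its level did. Igfbp3 held 2.80% ± 1.13 against 0.887% ± 0.569, without overlap on this scale but with overlap when plain counts were used, and Igfbp2 held 0.311% ± 0.0885 against 1.39% ± 0.331, again without overlap. The shares of Igfbp5 (20.2% ± 9.84 against 23.5% ± 3.85), Igfbp6 (21.6% ± 6.56 against 11.1% ± 5.62) and Igfbp7 (39.9% ± 12.4 against 58.3% ± 11.4) overlapped between the populations. These shares were described and not tested.

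**Figure D2:**
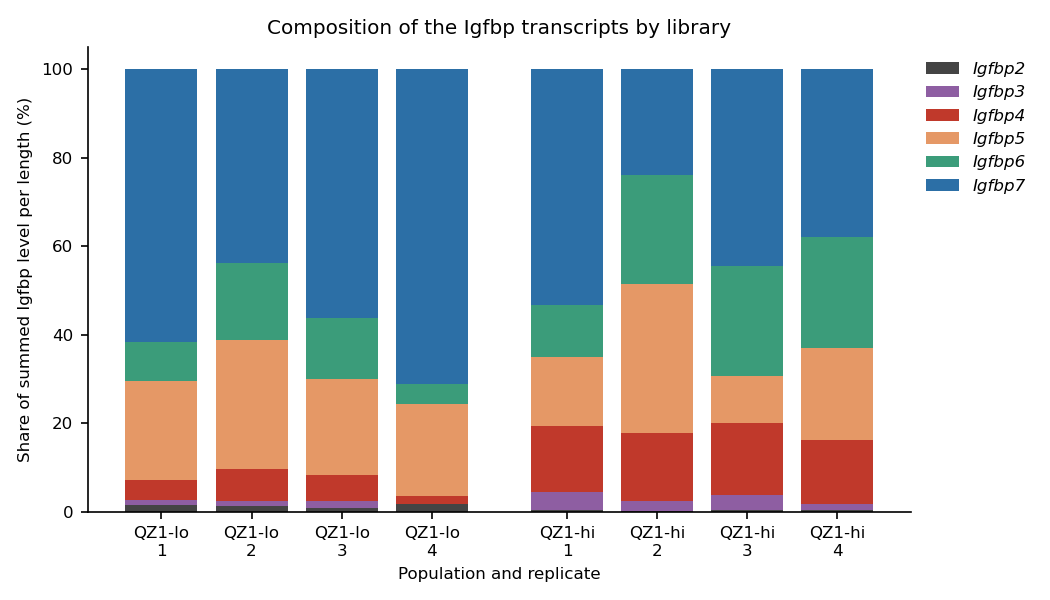
Share of each binding protein gene in the summed level per length of the 6 genes (percent, stacked to the whole) in each of the 8 libraries. Igfbp7 is the largest part in 7 libraries and Igfbp5 in QZ1-hi replicate 2, and the Igfbp4 part is wider in every QZ1-hi library (14.4% to 16.3%) than in any QZ1-lo library (1.71% to 7.19%).

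Of the receptors, Igf1r, the signalling IGF receptor, was lower in QZ1-hi. Its level was 42.3, 48.4, 48.5 and 34.4 CPM in QZ1-hi replicates 1 to 4 and 59.0, 60.8, 68.4 and 57.5 CPM in QZ1-lo replicates 1 to 4. Every QZ1-hi library lay below every QZ1-lo library, and the spread within each population was small. The means were 43.4 ± 6.68 and 61.4 ± 4.82 CPM (SD, n = 4 each), giving a log2 fold change of -0.50 (SE 0.13, 95% interval -0.80 to -0.20, edgeR adjusted p = 0.0244). The call did not hold without QZ1-hi replicate 1 (edgeR adjusted p = 0.0578), QZ1-hi replicate 4 (0.0575), QZ1-lo replicate 2 (0.0564) or QZ1-lo replicate 3 (0.0644), nor without replicate 4 of both populations (0.0519), although the direction did, with log2 fold changes from -0.58 to -0.37 when single libraries were left out.

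Igf1r was also lower beside its closest relative. Insr, the insulin receptor, had a log2 fold change of 0.10 (SE 0.13, 95% interval -0.20 to 0.39, edgeR adjusted p = 0.704), which turned to -0.35 with scaling by library size alone (adjusted p = 0.328). The ratio of Igf1r to Insr counts, which no scaling between libraries changes, was 0.705, 1.13, 1.05 and 0.594 in QZ1-hi replicates 1 to 4 and 1.23, 1.22, 1.49 and 1.14 in QZ1-lo replicates 1 to 4, so it did not overlap, by a narrow margin. Alveolar type 1, airway secretory and ciliated markers were lower in QZ1-hi as well. Igf1r counts were 3.87% to 5.88% of the counts of the 7 alveolar type 1 markers in QZ1-hi and 3.41% to 4.43% in QZ1-lo, which overlap. Ratios to the airway secretory and ciliated markers were not taken. Against alveolar type 2 markers Igf1r stayed lower, at 0.353% to 0.591% in QZ1-hi and 0.873% to 1.13% in QZ1-lo, without overlap. The ratio overlapped against macrophage and myeloid markers. It was lower without overlap against fibroblast, endothelial, pericyte, smooth muscle and mesothelial markers. Those marker sums were themselves higher in QZ1-hi, so these lower ratios do not show a lower Igf1r level. Igf2r, which was not called, was lower against the same lists. The part of alveolar type 1, airway secretory or ciliated content in the Igf1r difference was not tested.

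Igf2r, the receptor that clears IGF2, had the same direction without passing the test. It was read at 140.7, 140.8, 98.5 and 126 CPM in QZ1-hi replicates 1 to 4 and at 193, 184, 151 and 140.3 CPM in QZ1-lo replicates 1 to 4. The populations met at their edges, since QZ1-lo replicate 4 fell just under the highest pair of QZ1-hi libraries. The means were 127 ± 19.9 and 167 ± 25.4 CPM (SD, n = 4 each), with a log2 fold change of -0.40 (SE 0.15, 95% interval -0.74 to -0.07, edgeR adjusted p = 0.0989). Scaled by library size alone, Igf2r had a log2 fold change of -0.87 and passed (edgeR adjusted p = 0.0194). The ratio of Igf2r to Igf1r counts ran from 2.03 to 3.67 in QZ1-hi and from 2.21 to 3.28 in QZ1-lo, with overlap.

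The ligands did not pass the test, and their levels overlapped between the populations. Igf1 was read at 68.7, 55.7, 39.2 and 84.6 CPM in QZ1-hi replicates 1 to 4 and at 59.9, 31.4, 16.3 and 51.0 CPM in QZ1-lo replicates 1 to 4. The highest values were in QZ1-hi replicates 4 and 1 and the lowest in QZ1-lo replicates 3 and 2, and the ranges overlapped. The means were 62.1 ± 19.3 and 39.7 ± 19.6 CPM (SD, n = 4 each), with a log2 fold change of 0.64 (SE 0.35, 95% interval -0.13 to 1.42, edgeR adjusted p = 0.263). The sum of the 8 macrophage and myeloid markers was highest in replicate 4 of each population (6986 and 4595 CPM), but in QZ1-hi it was lowest in replicate 1 (3211 CPM), where Igf1 was the second highest. Lyz2 gave 78.6% to 84.7% of the marker counts, and Igf1 counts were 1.18% to 2.14% of the marker counts in QZ1-hi and 0.722% to 2.37% in QZ1-lo. None of the 8 macrophage and myeloid markers was called between the populations. Relative to the fibroblast markers, Igf1 counts were 1.14% to 4.84% in QZ1-hi and 4.01% to 57.6% in QZ1-lo, which overlap. The part of macrophages or fibroblasts in the Igf1 level was not tested.

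Igf2, mainly known as a growth factor of the fetus, was scarce. It was read at 0.720, 2.57, 4.10 and 0.596 CPM in QZ1-hi replicates 1 to 4 (17, 52, 71 and 10 counts) and at 0.596, 1.14, 0.796 and 0.286 CPM in QZ1-lo replicates 1 to 4 (20, 28, 22 and 7 counts). QZ1-hi replicates 2 and 3 were above the rest, and the other QZ1-hi libraries lay within the QZ1-lo range. The means were 2.00 ± 1.67 and 0.704 ± 0.358 CPM (SD, n = 4 each), with a log2 fold change of 1.49 (SE 0.73, 95% interval -0.11 to 3.10, edgeR adjusted p = 0.205). The interval reaches from just under 0 to a large difference, and the QZ1-hi libraries differed among themselves by up to 6.89-fold. Igf1 counts exceeded Igf2 counts in every library, by 9.55-fold to 142-fold in QZ1-hi and 20.5-fold to 178-fold in QZ1-lo.

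**Figure D3:**
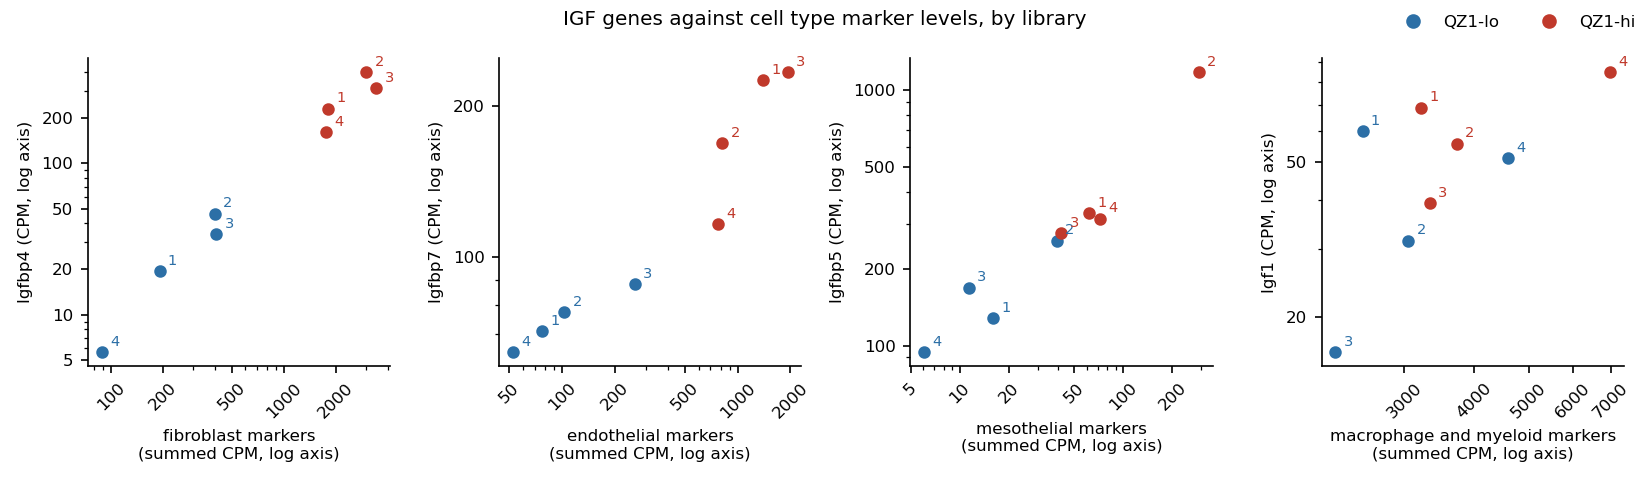
CPM of 4 members against the summed CPM of a marker list in the 8 libraries, on log axes, with pairs picked after the values were seen: Igfbp4 with fibroblast, Igfbp7 with endothelial, Igfbp5 with mesothelial, and Igf1 with macrophage and myeloid markers. Each point is a library; the Igfbp4 and fibroblast values of QZ1-hi are both above those of QZ1-lo, Igfbp5 and the mesothelial sum are both highest in QZ1-hi replicate 2, and both Igf1 and its marker sum overlap between the populations.

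Per length of exon, Igfbp4, Igfbp5, Igfbp6 and Igfbp7 stood above the other members in QZ1-hi, while Igfbp3 and Igfbp2 did not. In CPM per kilobase the order there was Igfbp7 (153 ± 45.1), Igfbp6 (88.8 ± 45.7), Igfbp5 (87.3 ± 72.4), Igfbp4 (62.1 ± 23.2), Igf2r (13.6 ± 2.14), Igfbp3 (11.4 ± 5.13), Igf1 (6.27 ± 1.95), Igf1r (2.59 ± 0.398), Igfbp2 (1.20 ± 0.363) and Igf2 (0.349 ± 0.292; SD, n = 4 each). The ranges of neighbours in this order were separate between Igfbp4 and Igf2r, between Igf1 and Igf1r, between Igf1r and Igfbp2 and between Igfbp2 and Igf2, and overlapped elsewhere. In QZ1-lo the order was Igfbp7 (62.3 ± 8.36), Igfbp5 (26.97 ± 11.7), Igf2r (18.0 ± 2.73), Igfbp6 (13.7 ± 9.81), Igfbp4 (5.97 ± 4.01), Igf1 (4.00 ± 1.98), Igf1r (3.66 ± 0.287), Igfbp2 (1.49 ± 0.382), Igfbp3 (1.10 ± 0.795) and Igf2 (0.123 ± 0.0625), with separate ranges only between Igfbp7 and Igfbp5 and between Igf1r and Igfbp2. Igfbp7 headed both orders and Igf2 closed both, while Igfbp3 stood above Igf1, Igf1r and Igfbp2 in QZ1-hi and below them in QZ1-lo by its mean.

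The members also differed in which other genes they resembled. Likeness was the root mean square difference of log2 CPM, each gene centred on its own mean over the 8 libraries, so a small value means that levels moved by the same steps. Igfbp4 was nearest to Col1a1 (0.20), a collagen chain, then Rcn3 (0.23) and Abi3bp (0.28), and Igfbp3 to Col1a2 (0.45), Gng11 (0.47) and Col1a1 (0.53). Igfbp6 was nearest to Boc (0.26), Efemp1 (0.27) and Dcn (0.28), which encodes the matrix proteoglycan decorin, and Igfbp5 to Enpp2 (0.27), Cdon (0.30) and Pkdcc (0.36). Igfbp7 was nearest to Atp8b2 (0.09), Sgce (0.11) and Fmnl3 (0.12).

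The receptors and ligands had other neighbours. Igf1r was nearest to Gse1 (0.09), Pcp4l1 (0.10) and Ywhah (0.10), and Igf2r to Cpox (0.09) and Flna (0.10). Igf1 was nearest to Nrp2 (0.19), a receptor for semaphorins and vascular growth factors, Spp1 (0.20), which encodes osteopontin, and Tmem141 (0.20). Igfbp2 was nearest to Pafah1b3 (0.11), Zdhhc16 (0.18) and Il17rc (0.18). Igf2 had more distant neighbours, Zbtb8a (0.45), Mst1r (0.47) and Olfml2a (0.50). Among the members themselves the nearest pairs were Igf1r with Igf2r (0.285), Igf1r with Igfbp2 (0.312) and Igf2r with Igfbp2 (0.392), followed by Igfbp4 with Igfbp6 (0.514) and Igfbp3 with Igfbp4 (0.575). These values describe 8 libraries from populations whose cell mixture differed. All genes of a library share its depth and cell mixture, so a small value can reflect that shared mixture.

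Other genes of the IGF pathway were read from 6 lists of 55 genes, of which 47 were tested. The called genes among the proteases and stanniocalcins were all higher in QZ1-hi, while those among the relatives of the binding proteins and the signalling genes below the receptor went both ways. In all, 11 of the 47 were called higher and 6 lower by edgeR, against 9.88% and 8.21% of all tested genes, and their median log2 fold change was 0.27 against 0.02. With scaling by library size alone the balance turned, to 5 higher and 8 lower.

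Of 6 genes of proteases that cut IGFBPs and of stanniocalcins, which inhibit pappalysin proteases, 3 were called higher and none lower. Pappa, which encodes the protease that cuts IGFBP4, was read at 5.00, 3.01, 1.68 and 2.26 CPM in QZ1-hi replicates 1 to 4 and at 1.10, 0.163, 0 and 0.246 CPM in QZ1-lo replicates 1 to 4. All QZ1-hi libraries were above all QZ1-lo libraries, at low levels throughout, and the log2 fold change was 2.93 (SE 0.91, edgeR adjusted p = 0.0467). The call was lost in 7 of 16 alternatives, with adjusted p up to 0.138, among them leaving out any 1 QZ1-hi library or QZ1-lo replicate 2 or 4. Stc1, which encodes a stanniocalcin and so an inhibitor of such cleavage, had a log2 fold change of 1.53 (SE 0.46, edgeR adjusted p = 0.0397), with overlap between the populations, and lost its call in 7 of 17 alternatives (adjusted p up to 0.107), among them leaving out QZ1-hi replicate 1, 2 or 3 or QZ1-lo replicate 1, 2 or 4. Adamts1, a metalloprotease gene of the ADAMTS family, was read at 198, 137, 236 and 127 CPM in QZ1-hi replicates 1 to 4 and at 29.6, 34.1, 48.1 and 27.8 CPM in QZ1-lo replicates 1 to 4. It had the smallest adjusted p of the pathway genes, with a log2 fold change of 2.32 (SE 0.24, edgeR adjusted p = 0.000263), and the populations were far apart.

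Of 10 tested genes whose products share the IGFBP domain, 3 were called higher and 2 lower. Htra3, a secreted serine protease, had the largest log2 fold change of the pathway genes at 4.05 (SE 0.60, edgeR adjusted p = 0.00104), with 18.9 to 88.3 CPM in QZ1-hi and 1.06 to 5.90 CPM in QZ1-lo. Its relative Htra4 had the opposite direction, at -1.06 (SE 0.23, edgeR adjusted p = 0.00808). The matricellular genes Ccn5 (log2 fold change 3.44, SE 0.67, edgeR adjusted p = 0.00457) and Ccn3 (1.41, SE 0.35, adjusted p = 0.0168) were higher, and Ccn1 was lower (-0.58, SE 0.18, adjusted p = 0.0457). The call of Ccn1 was lost without QZ1-hi replicate 1, 3 or 4 or QZ1-lo replicate 1, 2 or 3 (adjusted p up to 0.118), and that of Ccn3 without QZ1-hi replicate 3 (0.0606) or with library size alone (0.0766).

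Below the receptor, 4 of 21 adaptors and kinases were called higher and 3 lower, and 14 were not called. Irs1, the docking protein of the IGF1 and insulin receptors, was higher, with 17.3 ± 3.34 CPM in QZ1-hi and 10.1 ± 1.77 CPM in QZ1-lo (SD, n = 4 each; log2 fold change 0.78, SE 0.20, edgeR adjusted p = 0.0188). Grb10, an adaptor that dampens IGF1R and insulin receptor signalling, was read at 45.5 ± 12.5 and 19.6 ± 3.57 CPM (log2 fold change 1.21, SE 0.21, edgeR adjusted p = 0.00198). The log2 fold changes of the kinase genes Akt1 (0.17) and Akt2 (-0.18) were not called. The regulatory subunit gene Pik3r1 was higher (0.61, SE 0.14, edgeR adjusted p = 0.0116), and the catalytic subunit gene Pik3cb (-0.71, SE 0.17, adjusted p = 0.0123), the kinase gene Pdpk1 (-0.44, SE 0.13, adjusted p = 0.0392) and the transcription factor gene Foxo3 (-0.44, SE 0.11, adjusted p = 0.0138) were lower. With scaling by library size alone, Irs1 (log2 fold change 0.29, adjusted p = 0.492), Grb10 (0.77, 0.0721) and Pik3r1 (0.14, 0.681) were no longer called, and the log2 fold change of Akt1 turned to -0.28. Single libraries also decided calls: Pdpk1 was lost without QZ1-hi replicate 1, 2 or 3 or QZ1-lo replicate 1, 3 or 4 (edgeR adjusted p up to 0.114), Irs1 without QZ1-hi replicate 2 (0.0634), QZ1-hi replicate 3 (0.0569) or QZ1-lo replicate 2 (0.0521), and Foxo3 without QZ1-lo replicate 1 (0.0515). Without replicate 4 of both populations, Pik3cb (edgeR adjusted p = 0.0671) and Pik3r1 (0.0798) were not called.

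In the growth hormone axis, which drives Igf1 in liver, 1 of 5 genes was called higher and 1 lower. The growth hormone receptor gene Ghr was read at 17.2 ± 3.66 CPM in QZ1-hi and 7.08 ± 2.43 CPM in QZ1-lo (SD, n = 4 each; log2 fold change 1.28, SE 0.28, edgeR adjusted p = 0.00830). Socs2, an inhibitor of growth hormone signalling, was read at 32.1 ± 9.10 and 63.0 ± 15.2 CPM (log2 fold change -0.97, SE 0.22, edgeR adjusted p = 0.0104). Both genes were without overlap between the populations, and Ghr was not called with scaling by library size alone (0.78, adjusted p = 0.0947).

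Of the non-coding RNAs of the Igf2 and Igf2r loci and the genes of IGF2 mRNA-binding proteins, none of 4 tested genes was called. H19, the non-coding RNA of the imprinted Igf2 domain, had 33, 19, 80 and 17 counts in QZ1-hi replicates 1 to 4 and 0, 0, 31 and 0 counts in QZ1-lo replicates 1 to 4. Only QZ1-lo replicate 3 held H19 reads in its population, and the log2 fold change of 2.80 (SE 1.35) did not pass (edgeR adjusted p = 0.200). Without that library (edgeR adjusted p = 0.00490), and in limma with all libraries (adjusted p = 0.00884), H19 did pass. Airn, the antisense RNA of the Igf2r locus, had a log2 fold change of 0.40 (edgeR adjusted p = 0.605), which turned to -0.10 with scaling by library size alone. Of the remaining insulin and IGF genes, Insr alone was tested, and Igfbp1 had 2 counts over all libraries.

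**Figure D4:**
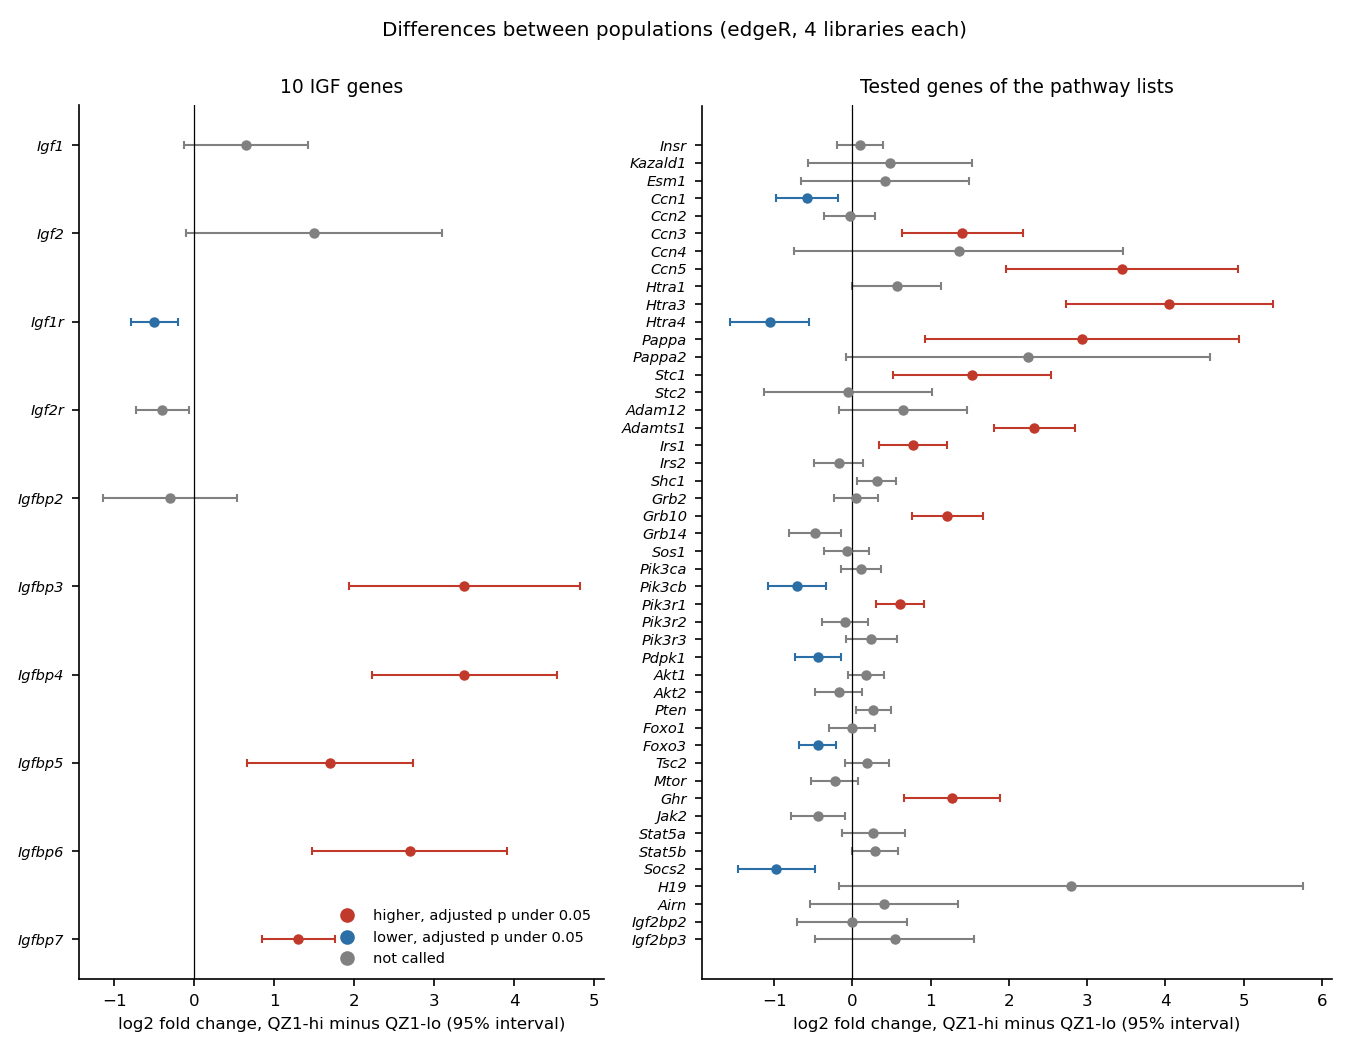
Log2 fold change (QZ1-hi relative to QZ1-lo) with its 95% interval from edgeR for the 10 members and tested pathway genes, in the order of the lists, with red for genes called higher, blue for genes called lower and grey for genes not called. Igfbp3 to Igfbp7 lie to the right of 0 and Igf1r to the left, and called pathway genes lie on both sides, with Htra3 (4.05) farthest to the right and Htra4 (-1.06) farthest to the left among those called.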

How the data were processed

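RNA-seq of 4 QZ1-hi and 4 QZ1-lo libraries was analysed. Stranded libraries (SMARTer total RNA kit) were sequenced on a NextSeq500, and the authors deposited the raw counts that Rsubread gave per gene, without normalization. The submitters' processing notes name mm10 and DESeq2; aligner, annotation and strand setting are not given in the sources used here. Entrez identifiers were given symbols from RefSeq (25275 of 27179 genes). The main analysis used edgeR 4.0.16 (R 4.3.3) with TMM factors (0.660 to 1.35), the filterByExpr filter (minimum count 10, minimum total 15) and the quasi-likelihood test. Benjamini-Hochberg adjustment covered 15583 genes, with a threshold of 0.05. The SE was taken from the log2 fold change and the F statistic (size over root F), and intervals are 95%. Levels are CPM, or CPM per kilobase of union exon (GENCODE M21). The members were taken by symbol. Named are all members, pathway genes past the test, other pathway genes the text counts, the 3 genes most like each member, neighbouring or overlapping genes, and markers given beside a member; some genes that these rules select are not reported here. The members and lists were chosen with earlier results of these data known. The procedure was tested on simulated counts. The alternatives were DESeq2 1.42.0, limma 3.58.1 (voom with quality weights), DESeq2 size factors in edgeR, library size only, other filters, robust shrinkage, removal of mitochondrial genes and ribosomal RNA, plain counts for the shares, and each library left out. Leaving out replicate 4 of both populations, marker sums under other scalings, and the alternatives for single pathway genes were added after seeing the data. Libraries held 18380918 to 26847938 counts; reads carry no molecular identifiers, so counts cover counting error only. Imaging, sensors and single-cell data were not analysed here.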

Additional observations from a re-analysis of the deposited data

Results flagged for a closer look

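Among the 20 groups of 4 library values (10 members in each population), 2 held a library far from the other 3 by Dixon's test at 95%; chance flags about 1 in 20 groups. For Igfbp3, QZ1-hi replicate 4 was the lowest of its population at 11.9 CPM, and its gap to the next library was 0.867 of the whole range. For Igfbp5, QZ1-hi replicate 2 was the highest of its population at 1176 CPM, and its gap was 0.939 of the range.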

How the results depend on the processing

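Igfbp3, Igfbp4, Igfbp6 and Igfbp7 stayed higher in QZ1-hi and past the threshold in every alternative that tested them (Igfbp3 was not tested with at least 10 counts in every library), with log2 fold changes of 2.998 to 3.78, 3.05 to 3.80, 2.34 to 3.17 and 1.146 to 1.499 when single libraries were left out. No member's log2 fold change changed sign; of the pathway genes named, Insr (-0.35), Akt1 (-0.28) and Airn (-0.10), none of them called, changed sign with scaling by library size alone. Leaving out 1 library gave 4 to 5 members higher and 0 to 1 lower, 7 to 12 pathway genes higher (7 without QZ1-hi replicate 3) and 3 to 5 lower (3 without QZ1-lo replicate 1); the cause was not tested. Without replicate 4 of both populations, 4 members were higher and 0 lower by edgeR; Igf1r then had an adjusted p of 0.0519. Scaling by library size alone gave 882 genes higher and 2509 lower, 5 members higher, 2 lower, and 5 pathway genes higher and 8 lower, so that the balance of calls turned for all genes and for pathway genes. With plain counts in place of counts per length, the QZ1-hi minus QZ1-lo share, in percentage points, was -0.81 in place of -1.08 for Igfbp2, 17.1 in place of 10.4 for Igfbp4, -12.9 in place of -3.35 for Igfbp5 (-7.82 to -0.17 without single libraries), 4.20 in place of 10.48 for Igfbp6 and -9.87 in place of -18.3 for Igfbp7, by the weight that length gives each gene. DESeq2 and limma each called 5 members higher and 1 lower. Igf2 (7 to 71 counts) and Igfbp2 (23 to 94 counts) rest on the fewest reads among the members, along with Igfbp3 in QZ1-lo replicate 4 (6 counts). No paired analysis was possible because the labels give no number that pairs libraries of the populations.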
